A study of Mus musculus with 8 samples.

Results

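Bone morphogenetic protein (BMP) signalling was described through 10 genes: the ligands Bmp2 and Bmp7, the secreted antagonists Nog and Fst, the receptors Bmpr1a and Bmpr2, and the target genes Id1, Id2, Id3 and Smad6. The genes were taken by symbol, and all 10 were found among the 24421 symbols counted. They had been proposed with the genotype difference in these data in view, so their values, and the counts of members called, describe these libraries and support nothing, and no p-value is given for a member.

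The libraries came from mouse skin keratinocytes of the mixed strain CBA x C57Bl/6J. There were 4 knockout libraries, labelled InvEE K5 Cre+ HMGB1 fl/fl, and 4 control libraries, labelled InvEE K5 Cre- HMGB1 fl/fl. All 8 carried floxed Hmgb1 and the InvEE transgene, an active form of the kinase MEK1 under the promoter of involucrin, a gene of suprabasal keratinocytes. Cre driven by keratin 5 acts in basal keratinocytes and their descendants. It was present in the knockouts alone, so loss of Hmgb1 and presence of Cre cannot be told apart. No age, sex or number of animals is stated in the labels, and replicates are numbered with no word on separate animals. Each genotype held libraries with and without Y-linked transcripts, and so more than 1 animal, but whether every library is an animal of its own is not stated. A p-value speaks for the variation among these 8 libraries, part of which may be technical.

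BMP ligands are secreted dimers that bring together type I receptors, such as BMPR1A, and type II receptors, such as BMPR2. The type I receptor phosphorylates SMAD1, SMAD5 and SMAD9, which enter the nucleus with SMAD4 and switch on target genes, among them the Id genes and the inhibitory Smads. In skin the pathway is known for holding hair follicle stem cells at rest and for promoting differentiation of hair and epidermis, while noggin opens the way to hair growth.

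Library totals over genes ran from 30506676 to 34229030 counts. Hmgb1 was at 113.4 to 126.2 CPM (counts divided by the library total, scaled by the TMM method) in knockout libraries and 565.5 to 615 CPM in control libraries. The keratinocyte markers summed to 64300 to 70500 CPM in knockouts and 53800 to 63600 CPM in controls, and 2 of the 8, Krt10 and Cdh1, were called higher. In fits that left out 1 library, Krt10 was not called without knockout replicate 2 or control replicate 2 (adjusted p up to 0.05639 by edgeR), and Cdh1 was called only without knockout replicate 3 or 4 (otherwise up to 0.1076). Transcripts of the Y-linked genes Ddx3y, Eif2s3y, Kdm5d and Uty were present in knockout replicate 1 and control replicates 2 and 3, at 6110 to 6743 counts, against 0 to 51 counts in the other 5, called Y-negative here. In the 5 Y-negative libraries neither Krt10 nor Cdh1 was called (edgeR adjusted p = 0.1205 and 0.2684). Over 13016 genes tested in all 8 libraries, edgeR's quasi-likelihood test at an adjusted p under 0.05 called 563 higher and 591 lower in the knockout. With library totals in place of TMM the split was 370 higher and 997 lower, and the median log2 fold change of all genes was -0.13 in place of -0.02.

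The 4 target genes and the antagonist noggin were lower in the knockout than in the control. The ligand Bmp2 was lower on average with overlapping groups, and the other members differed by at most 1.24-fold. Called lower were 5 of the 10 members (Nog, Id1, Id2, Id3 and Smad6), against 4.54% of all tested genes called in that direction, 4.33% in the other and 8.87% in either. The choice of the genes used this contrast, so nothing is read from that count. The members' median log2 fold change was -0.89, against -0.02 over all tested genes. For 5 members (Nog, Bmpr1a, Id1, Id2 and Id3) every knockout library lay below every control library, as it did for 9.00% of tested genes, while 7.95% lay wholly above and 17.0% were apart in either direction. No member was called higher by edgeR, DESeq2 or limma-voom, and 1 of 10, Bmpr2, was higher at an unadjusted p under 0.05 by edgeR. Of all 13016 tested genes, 3412 were under that cutoff in either direction, so nothing is read from this count either. In these bulk libraries, fewer cells of a type and less RNA per cell cannot be told apart.

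**Figure D1:**
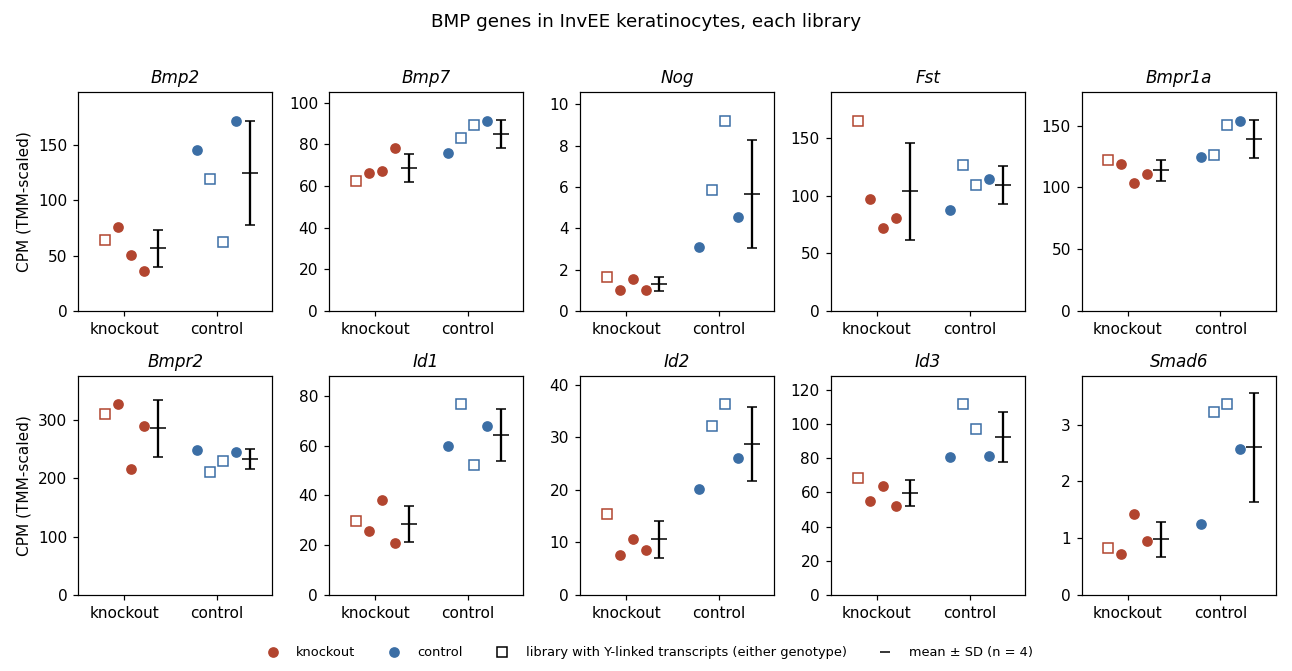
CPM of the 10 BMP genes (vertical axes from 0, a scale for each gene) in the 4 knockout and 4 control libraries, replicates 1 to 4 from left to right, with the mean and SD beside them. Open squares are the libraries with Y-linked transcripts. The points of the genotypes are apart for Nog, Bmpr1a, Id1, Id2 and Id3 and overlap for Bmp2, Bmp7, Fst, Bmpr2 and Smad6.

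Id1, Id2 and Id3 encode helix-loop-helix proteins that lack a DNA-binding region and hold E proteins away from DNA. Id1 (chr2:152736251-152737410, plus strand, mm10) had 29.79, 25.6, 38.18 and 20.87 CPM in knockout replicates 1 to 4, against 60.03, 76.62, 52.27 and 68.11 CPM in control replicates 1 to 4. The highest knockout library was below the lowest control. Its log2 fold change was -1.17 (SE 0.18), 2.25-fold lower in the knockout, and -1.18 in the 5 Y-negative libraries.

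Id2 (chr12:25093799-25097140, minus strand) had 15.43, 7.595, 10.7 and 8.587 CPM in the knockouts and 20.13, 32.18, 36.23 and 26.05 CPM in the controls. The libraries with Y-linked transcripts were the highest of their groups. On the log2 scale the difference was -1.44 (SE 0.25), or 2.71-fold lower, and it was -1.36 in the 5 Y-negative libraries. Id3 (chr4:136143497-136145755, plus strand) was at 68.27, 55.07, 63.95 and 51.93 CPM in the knockouts, against 81, 111.5, 96.85 and 81.05 CPM in the controls. Here too the libraries with Y-linked transcripts were the highest of each group. The log2 fold change of Id3 was -0.63 (SE 0.13), closer to 0 than those of Id1 and Id2, and -0.51 in the 5 Y-negative libraries.

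Smad6 (chr9:63953076-64022059, minus strand) encodes an inhibitory Smad that BMP signalling induces. It was scarce, at 0.8234, 0.7203, 1.423 and 0.9471 CPM in the knockouts (22 to 44 counts) and 1.257, 3.227, 3.358 and 2.57 CPM in the controls (45 to 109 counts). Knockout replicate 3 was above control replicate 1, so the groups overlapped. The log2 fold change was -1.40 (SE 0.34), and -0.89 in the 5 Y-negative libraries.

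Of the antagonists, noggin was lower in every knockout library and follistatin was not separated by genotype. Nog (chr11:89300638-89302332, minus strand), which binds BMP ligands outside the cell, had 1.647, 1.015, 1.552 and 1.01 CPM in the knockouts (31 to 48 counts), against 3.099, 5.847, 9.21 and 4.527 CPM in the controls (111 to 299 counts). The controls differed among themselves by more than the knockouts did, and control replicates 2 and 3, the libraries with Y-linked transcripts, were the highest. On the log2 scale the difference was -2.12 (SE 0.34), the largest difference of the 10 genes at 4.34-fold lower, and -1.67 in the 5 Y-negative libraries.

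Fst (chr13:114452290-114458951, minus strand) encodes follistatin, which binds activins and, less tightly, some BMPs. It was at 165.1, 97.1, 72.13 and 81.01 CPM in the knockouts and 87.54, 126.7, 109.3 and 114.2 CPM in the controls. Knockout replicate 1 was above all other libraries, while knockout replicates 3 and 4 were below all controls. Its log2 fold change was -0.08 (SE 0.25), and -0.39 without knockout replicate 1.

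The ligand Bmp2 (chr2:133552159-133562885, plus strand) had 63.9, 75.46, 50.6 and 36.15 CPM in the knockouts, against 145.7, 119.2, 62.04 and 172 CPM in the controls. Control replicate 3 lay among the knockouts and the other 3 controls lay above them. The log2 fold change was -1.14 (SE 0.33), -1.37 without control replicate 3 and -1.55 in the 5 Y-negative libraries. Bmp7 (chr2:172868012-172940321, minus strand) had 62.65, 66.13, 67.35 and 78.2 CPM in the knockouts and 76.09, 83.05, 89.24 and 91.45 CPM in the controls. Knockout replicate 4 passed the lowest control, and the log2 fold change was -0.31 (SE 0.10).

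The type I receptor Bmpr1a (chr14:34410734-34503341, minus strand) was at 122.5, 118.7, 103.3 and 111 CPM in the knockouts and 124.6, 126.6, 150.6 and 154.1 CPM in the controls. The groups stood apart by a narrow gap, at a log2 fold change of -0.29 (SE 0.10). The type II receptor Bmpr2 (chr1:59763400-59879014, plus strand) was at 311.3, 326.9, 215.5 and 289.9 CPM in the knockouts and 249.5, 210.8, 229.2 and 244.5 CPM in the controls. It was the one member with a log2 fold change above 0 (0.29, SE 0.13). Knockout replicate 3 fell within the control range, and without it the value was 0.41 and Bmpr2 was called higher.

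Which members were called moved with single libraries. When 1 library was left out, Id3 was not called without knockout replicate 2, Smad6 was called only without knockout replicate 3 or control replicate 1, and Bmp2 only without control replicate 3. In the 5 Y-negative libraries the members called were Nog and Id2. These fits reuse the libraries on which the genes were chosen, so a call that was kept is no support.

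Levels of different genes were compared per length, as TPM, which divides counts by exon length and by the library's sum. Id3 and Id1 had the highest medians and Nog and Smad6 the lowest in both genotypes. In the knockouts the medians ran Id3, Id1, Fst, Bmpr1a, Bmpr2, Bmp7, Bmp2, Id2, Nog and Smad6. In the controls they ran Id1, Id3, Bmp2, Fst, Bmpr1a, Bmp7, Bmpr2, Id2, Nog and Smad6. Ranges of neighbours overlapped for the first 7 genes of the knockout order, while Bmp2 and Id2, Id2 and Nog, and Nog and Smad6 were apart there. In the controls only Bmp7 and Bmpr2, Id2 and Nog, and Nog and Smad6 were apart. Id1 averaged 81.6 ± 19.7 TPM in knockouts and 198.8 ± 28.4 TPM in controls, and Id3 110.5 ± 9.41 and 185.8 ± 27.5 TPM (SD, n = 4 each). Nog averaged 2.54 ± 0.57 TPM in knockouts and 12.1 ± 5.69 TPM in controls, below the level of both ligands in every library.

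**Figure D2:**
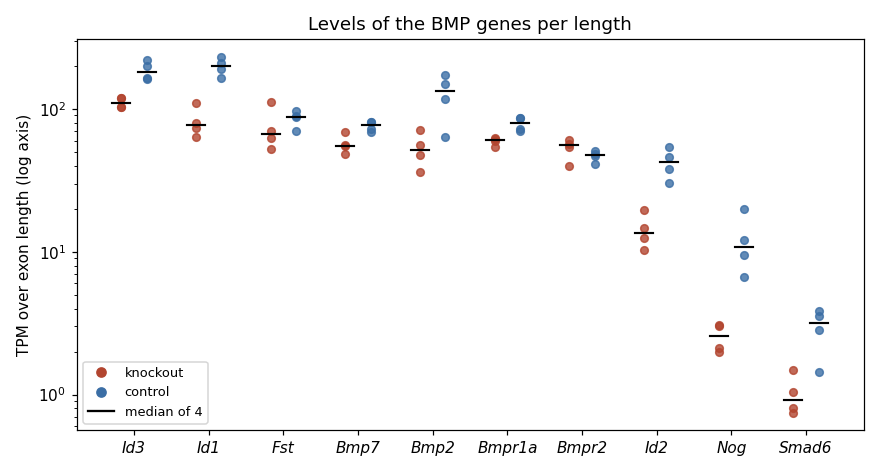
TPM over exon length (log axis) of the 10 BMP genes in knockout libraries (left of each pair) and control libraries (right), ordered by the median over all 8. Bars are medians of 4. Nog and Smad6 lie below the other genes of the same genotype, and Id1 and Id3 lie highest in the controls, at averages of 198.8 and 185.8 TPM, where 1 Bmp2 library reaches the range of Id1 and Id3.

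The rest of the pathway was read from a list of 66 further genes, chosen by role with earlier results of these data known. Of these, 45 passed the filter on low counts; the other 21 had at most 24 counts in any library, and 8 of them had none. By edgeR, 10 of the 45 fell in the knockout, 3 rose and 32 did not pass, where 4.54% of all tested genes were called lower and 4.33% higher. Their median log2 fold change was -0.11, against -0.02 over all tested genes. All 10 members passed that filter on the knockouts alone. Among the 45, Bmp6, Dand5, Smad9, Atoh8 and Hey1 passed only through the controls, and no gene passed only through the knockouts. Without these 5, 7 of 40 fell and 3 rose, at a median log2 fold change of -0.07.

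Among 7 further tested targets, Id4 fell and Gata3 rose, and Atoh8 and Hey1, which passed the filter through the controls only, were called lower. Id4, the remaining Id gene, was at 5.263, 6.548, 6.984 and 5.493 CPM in the knockouts and 9.214, 11.47, 11.34 and 9.434 CPM in the controls (log2 fold change -0.77, SE 0.15, edgeR adjusted p = 0.01299). Each knockout library was below each control for Id4, as for 9.00% of tested genes. It was so too for Id1, Id2 and Id3, which were chosen with this contrast in view. Atoh8, a basic helix-loop-helix factor, averaged 0.114 ± 0.073 CPM in knockouts (2 to 7 counts) and 0.652 ± 0.208 CPM in controls (13 to 26 counts; SD, n = 4 each, edgeR adjusted p = 0.01128). Hey1, a repressor that BMP and Notch signals both induce, averaged 0.199 ± 0.044 CPM in knockouts and 0.539 ± 0.167 CPM in controls (edgeR adjusted p = 0.03469). Both were close to the limit of detection, with groups that did not overlap, and neither reached the filter's cutoff in any knockout library.

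Gata3, a factor of the inner root sheath and epidermis, rose to 512.7 ± 117 CPM in knockouts, against 271.9 ± 78.2 CPM in controls (SD, n = 4 each, edgeR adjusted p = 0.03882). The hair factors Msx2 and Nfatc1 did not pass, at 5.75 ± 0.66 and 125 ± 24.6 CPM in knockouts and 6.66 ± 1.95 and 121.5 ± 14.3 CPM in controls. Id4 stayed called whichever library was left out, though not in the 5 Y-negative libraries (adjusted p = 0.1662). The same held for Atoh8 (0.1383 in the Y-negative libraries), which was tested only because the controls passed the filter. Hey1 lost its call in 7 of 8 fits, all but that without control replicate 1 (adjusted p = 0.05989 to 0.1071). Gata3 lost its call without knockout replicate 1, 2 or 4 or control replicate 2 (0.05032 to 0.1085). In the 5 Y-negative libraries neither was called (0.1607 for Hey1 and 0.1934 for Gata3), and the log2 fold change of Gata3, 0.91 over all 8, was 0.51.

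RefSeq promoters (GRCm38.p6) were matched by symbol for 31 BMP genes, 5 of them members. Further ligands, activins, receptors and E proteins were not looked up, and entries were not taken from every chromosome. A gene left out may thus have an entry. The 250 bases before the start are shown for Smad6 and for Smad9, Id4 and Atoh8, which were called lower, because Smad sites are often sought in such a stretch. The 4 were picked after their values were seen. The windows are chr9:64022060-64022309 (minus strand), chr3:54755332-54755581 (plus strand), chr13:48260866-48261115 (plus strand) and chr6:72235578-72235827 (minus strand), and none touches an annotated exon of its gene. Capitals mark GGCGCC, a GC-rich Smad motif equal to its reverse complement, and CAGAC, the Smad box, read on both strands (CAGAC or GTCTG).
Smad6: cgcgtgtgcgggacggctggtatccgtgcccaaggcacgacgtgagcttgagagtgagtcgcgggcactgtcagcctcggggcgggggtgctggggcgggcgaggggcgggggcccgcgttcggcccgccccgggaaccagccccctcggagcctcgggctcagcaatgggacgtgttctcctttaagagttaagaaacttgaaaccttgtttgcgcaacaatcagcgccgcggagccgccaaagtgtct
Smad9: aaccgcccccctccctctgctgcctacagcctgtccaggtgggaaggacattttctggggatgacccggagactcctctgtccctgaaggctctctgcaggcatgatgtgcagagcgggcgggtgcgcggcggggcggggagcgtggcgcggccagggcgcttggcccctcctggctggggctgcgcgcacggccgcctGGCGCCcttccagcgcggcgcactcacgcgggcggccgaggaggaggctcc
Id4: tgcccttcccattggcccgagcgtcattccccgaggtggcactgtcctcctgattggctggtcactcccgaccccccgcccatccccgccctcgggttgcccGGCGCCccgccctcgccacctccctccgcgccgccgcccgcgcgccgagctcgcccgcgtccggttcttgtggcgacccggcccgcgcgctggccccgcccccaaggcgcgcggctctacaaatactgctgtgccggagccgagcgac
Atoh8: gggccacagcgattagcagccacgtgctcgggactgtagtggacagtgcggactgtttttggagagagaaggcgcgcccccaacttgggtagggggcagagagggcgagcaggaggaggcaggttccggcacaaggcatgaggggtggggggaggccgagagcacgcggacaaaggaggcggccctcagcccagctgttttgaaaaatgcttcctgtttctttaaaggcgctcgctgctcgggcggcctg
GGCGCC was found once in the Smad9 and once in the Id4 window, as in 9.6% of the 32851 RefSeq promoter windows of the same length. CAGAC was found in none of the 4, and in 42.2% of all windows. The windows of Smad6 and Atoh8 held neither. Of the other members with an entry, the Id2, Bmpr1a and Bmpr2 windows held GGCGCC once each and the Id3 window held CAGAC or its complement at 2 places; these windows lie partly or wholly in annotated exons. The GC content of the windows shown was 66.8% for Smad6, 73.2% for Smad9, 75.6% for Id4 and 63.2% for Atoh8, above the median of 52.4% over all windows.

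Among 8 negative regulators inside the cell, Smad7, Ski and Tob1 fell and Smurf1 rose. Tob1, known in mouse bone cells for damping BMP Smads, was at 117.6 ± 7.56 CPM in knockouts and 168.1 ± 11.9 CPM in controls (SD, n = 4 each, log2 fold change -0.52, SE 0.09, edgeR adjusted p = 0.00725). Smad7, the other inhibitory Smad, was at 22.4 ± 1.11 CPM in knockouts and 30.4 ± 4.99 CPM in controls (edgeR adjusted p = 0.04918), and the corepressor Ski at 168 ± 2.67 and 212.4 ± 18 CPM (0.03488). These were small differences, of 1.26-fold to 1.43-fold. Smurf1, a ubiquitin ligase for BMP Smads, rose to 117.8 ± 25.8 CPM in knockouts, against 81.3 ± 4.47 CPM in controls (edgeR adjusted p = 0.03713). Skil and Ppm1a did not pass, at 145 ± 24.2 and 116.4 ± 16.8 CPM in knockouts and 120.5 ± 23.1 and 113.4 ± 9.08 CPM in controls. Tob1 stayed called whichever library was left out and in the 5 Y-negative libraries (adjusted p = 0.03578). Smad7 and Ski each kept the call only without control replicate 1 (otherwise 0.05955 to 0.1378 and 0.05115 to 0.1079), and Smurf1 only without knockout replicate 3 or 4 (otherwise 0.06198 to 0.1001). In the 5 Y-negative libraries Smad7, Ski and Smurf1 were not called (0.2995, 0.2016 and 0.1792). Smad7 was called in 4 of all 18 alternatives.

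**Figure D3:**
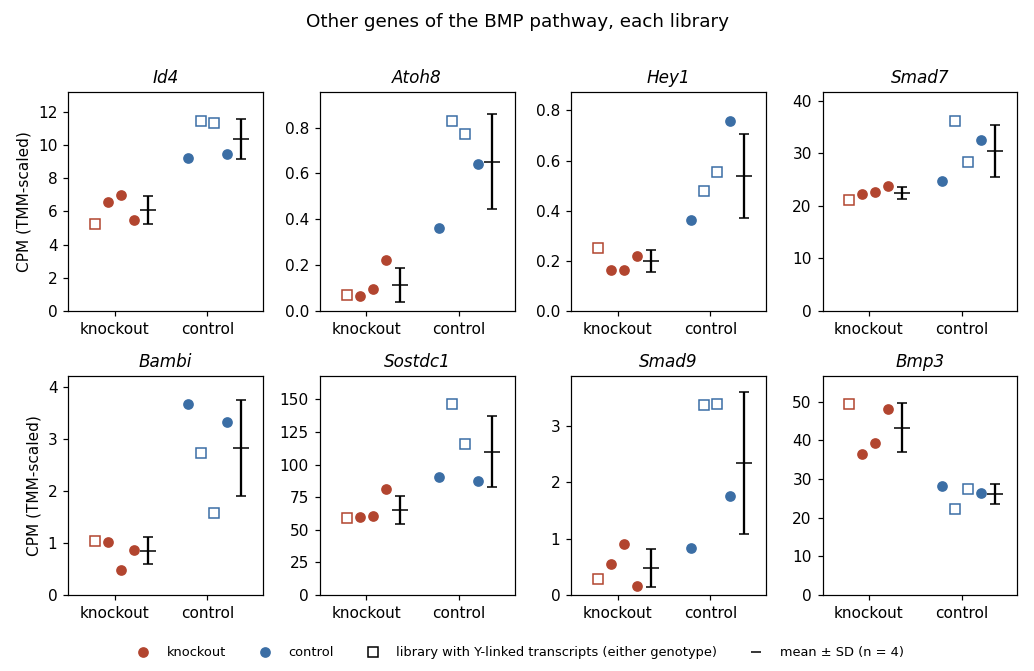
CPM of 8 further genes of the BMP pathway (vertical axes from 0, a scale for each gene) in knockout and control libraries, drawn as for the 10 genes, with mean and SD. These 8 were picked after their values were seen. The points of the genotypes are apart for all but Smad9, and Bmp3 is the one gene that is higher in the knockouts, at 36.41 to 49.3 CPM against 22.33 to 28.23 CPM in controls.

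Of 9 further antagonists, Bambi and Sostdc1 fell and 7 did not pass. Bambi, a decoy receptor that lacks a kinase domain and is itself induced by BMP, was at 1.038, 1.015, 0.485 and 0.8524 CPM in the knockouts and 3.658, 2.716, 1.571 and 3.33 CPM in the controls. Each knockout library was below each control (log2 fold change -1.73, SE 0.33, edgeR adjusted p = 0.01169), and it stayed called whichever library was left out and in the 5 Y-negative libraries (adjusted p = 0.01387). Sostdc1, a secreted antagonist of BMP and Wnt ligands, was at 65.3 ± 10.7 CPM in knockouts and 109.9 ± 27.3 CPM in controls (SD, n = 4 each, edgeR adjusted p = 0.02843). Its call was lost without knockout replicate 1, 2 or 3 or control replicate 2 or 3 (0.05416 to 0.08792), and the log2 fold change of -0.75 was -0.40 in the 5 Y-negative libraries. Twsg1 and Crim1, which bind BMP ligands, had the highest mean CPM among the antagonists that were not called. They were at 246 ± 14.9 and 153.5 ± 16.4 CPM in knockouts and 223.8 ± 41.9 and 169.3 ± 11.1 CPM in controls.

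Of 3 further ligands tested, Bmp3, an atypical family member known for opposing other BMPs in bone, rose. It was at 49.3, 36.41, 39.25 and 48.05 CPM in the knockouts, against 28.23, 22.33, 27.29 and 26.32 CPM in the controls (log2 fold change 0.73, SE 0.12, edgeR adjusted p = 0.00725). The lowest knockout was above the highest control, and Bmp3 stayed called whichever library was left out but not in the 5 Y-negative libraries (adjusted p = 0.05679). Bmp4 did not pass, at 26.6 ± 5.33 CPM in knockouts and 28.2 ± 7.52 CPM in controls, nor did Bmp6, at 0.522 ± 0.218 and 1.06 ± 0.231 CPM (SD, n = 4 each). The inhibin and activin subunit genes Inha and Inhbb did not pass either. Inha was at 4.37 ± 1.01 CPM in knockouts and 4.33 ± 1.94 CPM in controls, and Inhbb at 13.5 ± 1.85 and 14.6 ± 2.03 CPM.

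Of 9 further receptors and co-receptors, Neo1 fell and 8 did not pass. Neo1 encodes neogenin, a receptor for the repulsive guidance molecules that act as BMP co-receptors. It was at 66.95, 60.83, 45.27 and 57.43 CPM in the knockouts and 85.92, 82.95, 113.4 and 97.65 CPM in the controls (log2 fold change -0.72, SE 0.14, edgeR adjusted p = 0.01169), with no overlap. It stayed called whichever library was left out and in the 5 Y-negative libraries (0.02518). Acvr2a, a type II receptor, and Rgmb, a co-receptor, were at 87.3 ± 10.6 and 69.4 ± 5.67 CPM in knockouts and 90.4 ± 17.5 and 66.5 ± 11.3 CPM in controls and did not pass.

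Of the 4 Smad transducers, Smad9, which passed the filter through the controls only, was called lower, and Smad1, Smad5 and Smad4 did not pass. Smad9 was scarce, at 0.2864, 0.5566, 0.9053 and 0.1579 CPM in the knockouts (5 to 28 counts) and 0.8377, 3.387, 3.388 and 1.753 CPM in the controls (30 to 110 counts). Control replicates 2 and 3, with Y-linked transcripts, were the highest, and control replicate 1 lay within the knockout range. Its fitted difference of -2.28 log2 units (SE 0.57, adjusted p = 0.03713 by edgeR) was -1.26 in the 5 Y-negative libraries. Its call was kept only without knockout replicate 3 or control replicate 1 when 1 library was left out (otherwise 0.05561 to 0.09709). Smad5 and Smad4 were at 139 ± 8.35 and 106.7 ± 12.7 CPM in knockouts and 146.1 ± 12 and 95.7 ± 1.88 CPM in controls (SD, n = 4 each). Of the E proteins that Id proteins bind, 0 of 3 were called by edgeR, 1 (Tcf3) had an unadjusted p under 0.05, DESeq2 called 1 and limma-voom 0. Tcf3 was at 76.1 ± 6.22 CPM in knockouts and 93.9 ± 6.85 CPM in controls, with edgeR adjusted p = 0.05925 and a range over the alternatives of 0.02825 to 0.173. Tcf12 was at 128.4 ± 7.31 and 134.8 ± 5.97 CPM.

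**Figure D4:**
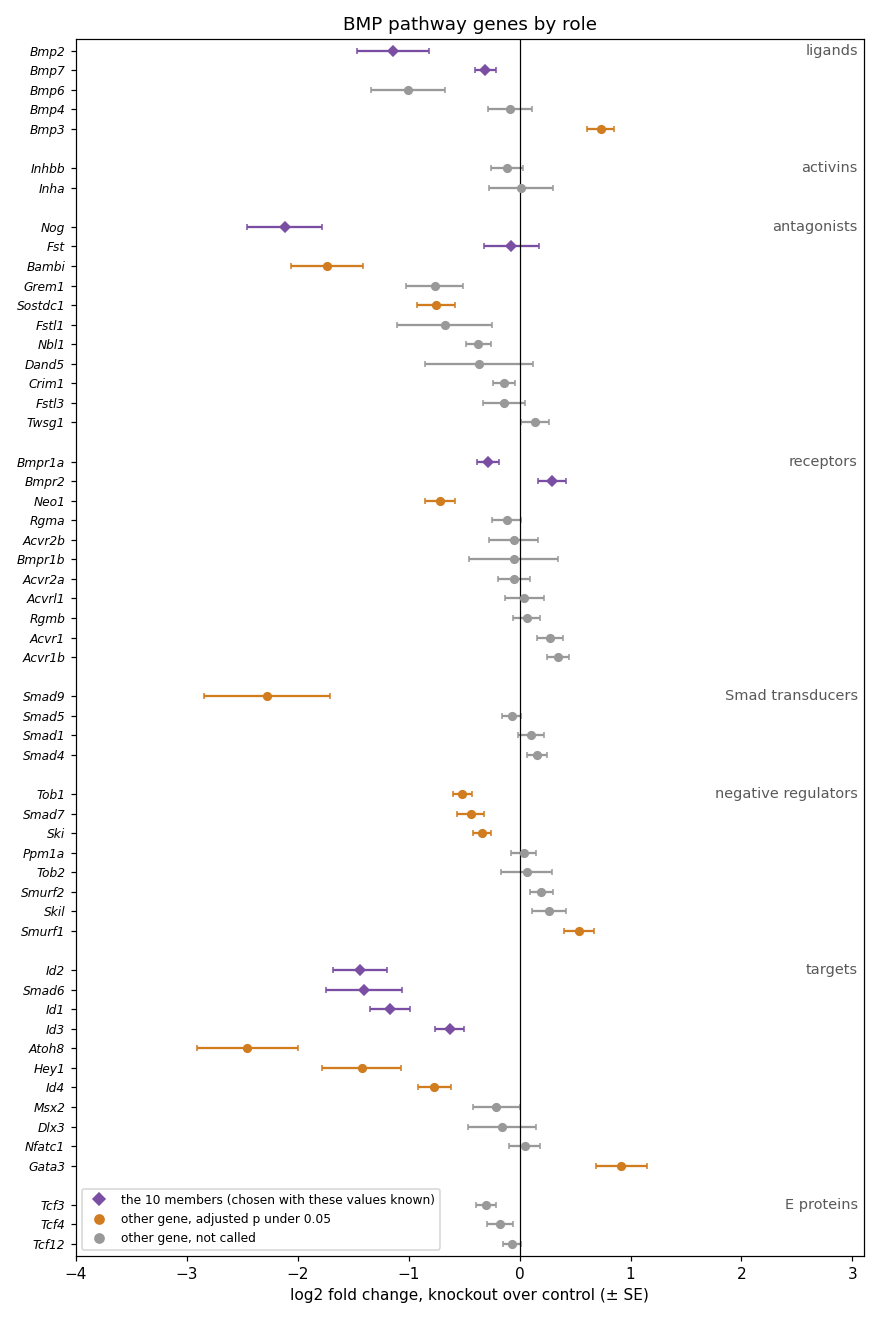
Log2 fold change of each gene, knockout over control, with its SE, grouped by role in the pathway. Diamonds are the 10 members, chosen with these values known, and circles the 45 further tested genes, filled orange where the edgeR adjusted p was under 0.05. The Id genes, Smad6, Atoh8, Hey1, Nog and Bambi lie left of 0, and Bmp3, Smurf1 and Gata3 are the called genes right of 0.

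Markers of other cells of the skin were low. Fibroblast markers summed to 5.68 to 28.5 CPM in knockouts and 15.3 to 21.3 CPM in controls, with 1 of 5 tested (Dcn, at 1.92 ± 0.615 CPM in knockouts and 0.663 ± 0.229 CPM in controls) called higher. Dcn was not called without knockout replicate 2 or control replicate 2 (edgeR adjusted p up to 0.06044), nor in the 5 Y-negative libraries (0.08954). Endothelial markers summed to 0.442 to 2.2 CPM in knockouts and 0.927 to 4.31 CPM in controls, melanocyte markers to 6.12 to 7.53 and 5.87 to 6.71 CPM, and myeloid and Langerhans cell markers to 14.5 to 39.8 and 17.4 to 50.7 CPM. T cell, neutrophil and Merkel cell markers reached at most 0.739, 10.4 and 0.234 CPM in any library. No listed marker that was found in the files was at 0 in every library, and apart from Dcn 0 tested genes of these 7 lists were called by edgeR, DESeq2 or limma-voom. At an unadjusted p under 0.05 the count was 0 by edgeR and 1, an endothelial gene, by limma-voom.

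Genes of the hair follicle, where Nog and the Id genes are known to act, were lower in part. Dermal papilla markers summed to 2.68 to 4.79 CPM in knockouts and 3.94 to 8.28 CPM in controls. Of these, 1 of 3 tested, Hhip, was called lower, at 0.422 ± 0.162 CPM in knockouts and 1.59 ± 0.318 CPM in controls (SD, n = 4 each, edgeR adjusted p = 0.006804). Hhip passed the filter on low counts through the controls only, at 9 to 20 counts in knockouts and 41 to 65 in controls. Hair matrix markers summed to 2.39 to 2.55 CPM in knockouts and 2.75 to 8.21 CPM in controls, with 0 of 2 tested called by edgeR, DESeq2 or limma-voom and 0 at an unadjusted p under 0.05. Bulge markers summed to 2540 to 2830 CPM in knockouts and 2160 to 3840 CPM in controls, most of it Krt15, and 1 of 6, Lgr5, fell (edgeR adjusted p = 0.006426). Lgr5 was at 3.866, 3.601, 5.723 and 2.747 CPM in the knockouts and 14.63, 21.15, 23.04 and 9.113 CPM in the controls. Lgr5 stayed called whichever library was left out and in the 5 Y-negative libraries (edgeR adjusted p = 0.04417). Hhip, with its limit at the filter, stayed called whichever library was left out but not in the 5 Y-negative libraries (edgeR adjusted p = 0.05974). Cd34 and Lhx2 did not pass by edgeR (DESeq2 called both and limma-voom Lhx2), at 20.3 ± 11.1 and 15.4 ± 8.16 CPM in knockouts and 48.2 ± 15.2 and 31.6 ± 7 CPM in controls (SD, n = 4 each). Like Nog, Id2, Smad6 and Smad9, these 3 bulge genes were, among the controls, highest in replicates 2 and 3, those with Y-linked transcripts. Among the knockouts, Y-negative replicate 3 was the highest for Cd34, Lgr5, Lhx2, Smad6 and Smad9. Knockout replicate 1, with Y-linked transcripts, was the highest for Nog and Id2. The other bulge markers had another order: Krt15 was lowest in control replicate 3, and Sox9 and Tcf7l1 were highest in control replicates 2 and 4. The part of these cells, and of sex, in the BMP values was not tested.

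Candidates for likeness to a member were 11056 or 11057 other genes with a mean of at least 2 CPM. After the genotype means were subtracted from log2 CPM, the genes that followed a member most closely over the 8 libraries were found. For Bmp2 they were Icam1 and Birc3, with Pearson r of 0.988 and 0.987 and Spearman rho of 0.976 for both. By r they were, for Nog, Itpk1 and Ccdc109b (0.991 and 0.988), for Bmpr1a Tm9sf4 and Ctnnb1 (0.987 and 0.982), for Id1 Apoa1bp and Nenf (0.941 and 0.936) and for Smad6 Gadd45gip1 and Sox15 (0.982 and 0.977). Spearman rho for these 8 genes was between 0.833 and 1. The values share their libraries, were picked as the highest of all candidates, and describe these 8 libraries only.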

How the data were processed

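The authors deposited raw whole-number counts for each symbol and library. Per the submitters' processing notes, the build was mm10 and the tools included TopHat2 2.1.0, Trimmomatic 0.35, FastQC 0.11.4 and SAMtools 0.1.18. Counting tool, annotation and strand setting are not given in the sources used here. Reads outside genes (15.7 to 21.7% of each total) and ambiguous reads (0.918 to 1.11%) were left out. Antisense exons of genes outside the files cover 4.6% of Bmpr1a and 2.5% of Fst exon bases, and their reads cannot be told apart.

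Genes were filtered with edgeR's filterByExpr, which kept 13016, scaled by TMM and tested with edgeR's quasi-likelihood test (robust, genotype the only term), with Benjamini-Hochberg adjustment over all tested genes and a threshold of 0.05. The versions were edgeR 4.0.16, DESeq2 1.42.0 and limma 3.58.1 under R 4.3.3. Standard errors belong to the fitted log2 fold change. On simulated counts for 12901 genes edgeR recovered 36% of genes changed 1.5-fold and 82% changed 2-fold. Of the calls there, 5.49% were unchanged genes with edgeR, 5.52% with limma-voom and 17.7% with DESeq2. The simulation changed 200 genes, none as scarce as Atoh8 or Hey1, and built in no difference by Y-linked transcripts. Its rates belong to that setting and are not those of the knockout contrast. TPM used the exon length in GENCODE M21 (95.5% of symbols matched), whose coordinates are given. Intervals are SD or SE over libraries.

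The members, gene lists, tests and alternatives were chosen with earlier results of these data known. Further pathway genes were named when called, with the 2 uncalled genes of highest mean CPM in each role; Lgr5, Hhip, Dcn, Krt10, Cdh1, Cd34, Lhx2 and Smad1 were named after their values were seen. Alternatives were DESeq2, limma-voom, RLE scaling, library totals, 2 other filters, dispersion that was not robust, the replicate number as a block, a term for Y-linked transcripts, the libraries without them, and leaving out each library.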

Additional observations from a re-analysis of the deposited data

Results flagged for a closer look

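In 78 groups of 4 libraries checked for the named BMP genes, 2 libraries stood far from the rest of their group, fewer than the 1 in 20 that chance gives. Sostdc1 was at 81.23 CPM in knockout replicate 4, against 59.21 to 60.56 CPM in the other knockouts. Inha was at 7.204 CPM in control replicate 1, against 3.08 to 3.739 CPM in the other controls.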

How the results depend on the processing

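The number of members called lower, 5, was 8 with library totals only, which added Bmp2, Bmp7 and Bmpr1a, and 2 in the 5 Y-negative libraries. With a term for Y-linked transcripts on all 8 libraries it was 4, without Smad6. Leaving out 1 library it was 3 to 5, with 3 without knockout replicate 2, and the number called higher was 0 to 1. Of the further pathway genes, 10 were called lower, 6 with the replicate block, 3 in the 5 Y-negative libraries (Bambi, Neo1 and Tob1) and 5 to 10 leaving out 1 library, with 5 without knockout replicate 1, knockout replicate 2 or control replicate 2, and 6 without knockout or control replicate 4. The 3 called higher were 0 in the 5 Y-negative libraries (edgeR, 3 at an unadjusted p under 0.05, while DESeq2 and limma-voom were run on all libraries only, with 4 and 3) and 1 to 4 leaving out 1 library, with 1 without knockout replicate 1, knockout replicate 2 or control replicate 2. Over all genes, the calls higher and lower were 1093 and 917 with DESeq2, 370 and 997 with library totals only, 375 and 348 with the replicate block, 141 and 242 in the 5 Y-negative libraries, and 200 to 678 and 262 to 569 leaving out 1 library. They were 200 and 262 without knockout replicate 2, 247 and 303 without control replicate 2 and 352 and 366 without knockout replicate 1, while those higher were 354 without control replicate 3 and those lower 359 and 387 without knockout and control replicate 4. With the term for Y-linked transcripts, 8 further pathway genes were called lower and 2 higher. Those lower included genes not called without the term, among them Tcf3 (edgeR adjusted p = 0.03637 with it). Among the further genes called without the term, Sostdc1, Smad9, Smad7, Hey1 and Gata3 lost the call. Bambi, Neo1, Tob1, Ski, Id4, Atoh8, Bmp3 and Smurf1 kept the call. Atoh8 had been tested only because the controls passed the filter on low counts. Hey1 and Smad9, also counted among the 10 called lower, share that limit. The cause of the moves in these calls was not tested, though the fits with fewer libraries had fewer samples. The replicate numbers did not pair the libraries: same-numbered libraries had correlations of -0.228 to -0.0528 in their deviations from the genotype means, and 0 of 8 correlated best with its own number. The number of knockout replicate 4 is that of its title, and its deposited file is numbered otherwise, so its place in the block is uncertain. In all 18 alternatives the log2 fold changes of the members moved by less than the spread between replicates. Leaving out 1 of 4 libraries can hardly move a mean by that much, and the fits share their libraries, so this is no sign of stability. The direction of the members' fold changes held except for Fst (-0.39 to 0.07). Counts limit the precision for Atoh8, Hey1, Smad9 and Smad6.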
